A study of Mus musculus with 6 samples.

Results

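The 39 genes described here code for the enzymes of glycolysis, the transporters that carry glucose and lactate across the cell membrane, the kinases that set the rate of glycolysis and the entry of pyruvate into mitochondria, the hypoxia-inducible factors (HIFs) with their prolyl hydroxylases, and target genes of the HIFs. They were listed by name and function, and the rule that lists them uses no measured difference between the groups. Each was found by its symbol among the 56748 Ensembl gene identifiers of the mouse count table, and all 39 had at least 10 counts in at least 3 samples. The samples were ureters of wildtype NMRI mouse embryos, explanted at embryonic stage E12.5 and cultured for 18 h on porous membranes, either with 15 mM LiCl (LiCl group, 3 samples) or with water instead (control group, 3 samples). LiCl inhibits the kinase GSK3, which normally marks beta-catenin for degradation, and was used as an activator of canonical WNT signaling. Both groups were of the same strain, genotype and stage, and both were kept in DMEM/F12 medium that also contained GlutaMAX, nonessential amino acids, pyruvate and antibiotics. The paper also lists fetal calf serum, which it left out of cultures for microarrays and quantitative PCR. Whether the sequenced cultures held serum is not given. The explants held the epithelium and the mesenchyme of the ureter together with the blood, vessel, immune and nerve cells that came with them, and 1 dose and 1 time point of LiCl were measured. How many ureters made up a sample is not given in the sources used here, nor whether the 3 samples of a group came from separate cultures, so the p-values measure only the spread between these samples.

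Glycolysis splits glucose into pyruvate in the cytoplasm. Its first steps, from hexokinase to triose phosphate isomerase, use ATP to prepare and cleave the sugar, and its later steps, from glyceraldehyde-3-phosphate dehydrogenase to pyruvate kinase, return ATP. Lactate dehydrogenase then turns pyruvate into lactate, which monocarboxylate transporters export, or pyruvate enters the mitochondria, where the pyruvate dehydrogenase kinases hold back its use. When oxygen is plentiful, EGLN prolyl hydroxylases mark the alpha subunits HIF1A and EPAS1 (HIF2A) for destruction by the VHL complex. When oxygen falls, the alpha subunits accumulate, largely without a change of their mRNA, and switch on glucose uptake, most glycolytic enzymes, vessel growth factors such as VEGFA, and the mitophagy receptors of the BNIP3 family. Growing embryonic tissues commonly run glycolysis at a high rate. The mRNA levels given below do not measure glycolytic flux, oxygen or HIF protein.

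Total counts ranged from 28473436 to 31266945 per sample. The 39 genes together held 0.365% to 0.384% of them in control and 0.347% to 0.352% in LiCl samples, without overlap. The summed level of the 10 epithelial markers was 1224 to 1526 CPM (counts scaled to library size) in control and 927 to 970 in LiCl samples, and that of the 10 markers of the ureteric mesenchyme 7021 to 7660 and 5380 to 6015 CPM, so the markers of the labelled tissue were present and both sums were lower after LiCl. Single markers went both ways, with 7 of 10 epithelial markers lower and 1 higher, and 6 of 10 mesenchymal markers lower and 2 higher. Skeletal muscle markers stood apart. Their summed level was 9.89 to 12.47 CPM in control samples and 10.4 in LiCl replicate 2, but 41.6 in LiCl replicate 1 and 84.8 in LiCl replicate 3, and 6 of the 9 tested muscle markers were called higher. Calls that were lost when LiCl replicate 2 alone was set against the controls are therefore named below. The part of these shifts in the values of the 39 genes was not tested. In bulk samples, fewer cells of a type and less RNA per cell cannot be told apart.

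After 18 h of LiCl, the glycolysis and hypoxia genes did not move as a block. Of the 39 genes, 8 rose and 19 fell at an adjusted p under 0.05 in edgeR's quasi-likelihood test across 18188 genes, and 12 did not pass. That is 20.5% higher and 48.7% lower, beside 21.1% and 22.4% of all genes tested. Their log2 fold changes had a median of -0.16, against -0.01 over all genes tested. Most of the 39 were well expressed, with 33 at a mean of at least 10 CPM; among all genes at that level, 29.2% were higher and 23% lower.

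The changes were small in size. With the minimum the study set, a log2 fold change beyond 1 in either direction, 0 genes were called higher and 1 lower, the aldolase gene *Aldoc*, beside 2.74% and 4.59% of all genes. In both edgeR and DESeq2, 0 of the 39 had a log2 fold change above 1 even at an unadjusted p under 0.05. In 8 genes every LiCl sample lay above every control sample in FPKM (fragments per kilobase of transcript, scaled to sequencing depth), beside 28% of all genes, and in 20 genes every LiCl sample lay below, beside 26.2% of all genes. In the other 11 genes the groups overlapped. The plot of fold changes by role shows both directions within every group of genes except the HIF and prolyl hydroxylase genes.

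**Figure D1:**
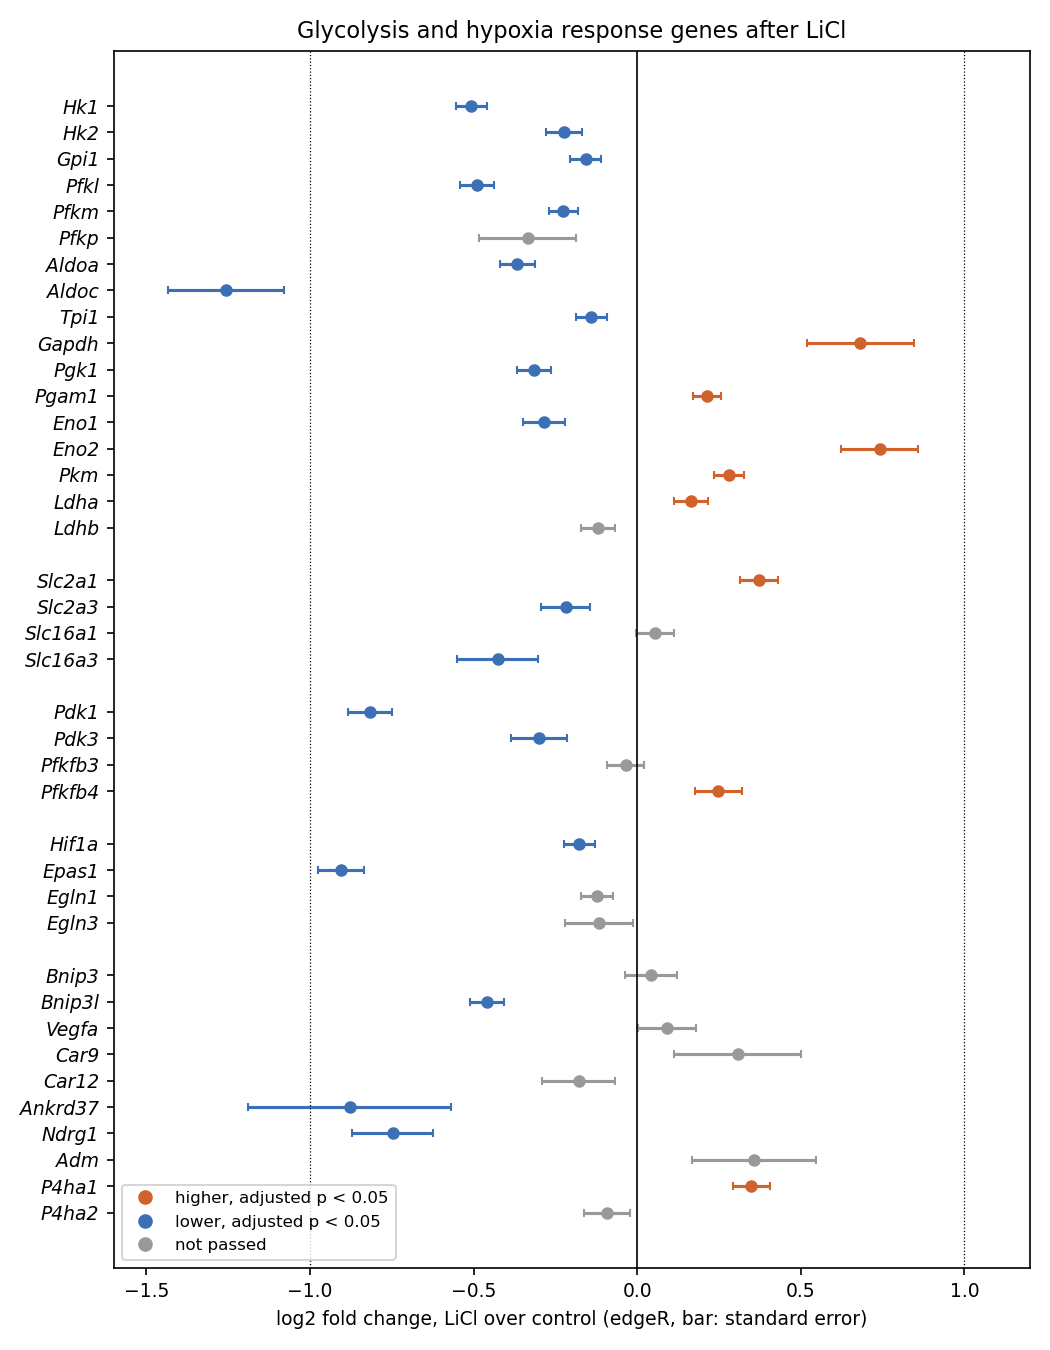
Log2 fold change of LiCl over control for the 39 genes on the horizontal axis, with the standard error as bar, ordered by role from glycolytic enzymes at the top to other HIF target genes at the bottom. Points in orange were higher (8), points in blue lower (19) and points in grey did not pass (12); dotted lines mark a log2 fold change of -1 and 1, and the *Aldoc* point alone lies beyond them.

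HIFs bind DNA at short elements with the core letters ACGTG or GCGTG. These letters were sought on both strands in the promoter windows of the RefSeq tables for GRCm38.p6, each 300 bases long with 250 before and 50 after an annotated start. For 35 of the 39 genes a window was found, 49 windows in all, since several genes have more than 1 start; *Slc2a3*, *Epas1*, *Bnip3l* and *Ndrg1* had none. ACGTG occurred in 27 of the 49 windows (55.1%), against 19.6% of all 32851 mouse windows. GCGTG occurred in 57.1% against 32.4%, and either of them in 79.6% against 43.8%. The windows of the 39 genes were also richer in G and C, with 61.7% against 53.8%. Of the genes with a window, ACGTG stood in at least 1 window of 6 of the 8 that rose, 10 of the 15 that fell and 8 of the 12 that did not pass, so the letters were found in genes of all 3 kinds. The palindrome CACGTG counts as overlapping matches on both strands.

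The 250 bases before the start are shown for 5 genes with such letters, picked after their values were seen. Of these, *Ldha* and *P4ha1* rose and *Hk2*, *Pgk1* and *Ankrd37* fell, so similar letters stood before genes that moved in opposite directions. Only the calls of *P4ha1* and *Pgk1* held under every alternative, while those of *Ldha*, *Hk2* and *Ankrd37* were lost under at least 1. A link between letters and direction was not tested. All are written 5′ to 3′ on the strand of the gene in build GRCm38.p6, and capitals mark ACGTG or its reverse complement CACGT, which merge where they overlap.
*Ldha*, chr7:46845554-46845803, plus strand: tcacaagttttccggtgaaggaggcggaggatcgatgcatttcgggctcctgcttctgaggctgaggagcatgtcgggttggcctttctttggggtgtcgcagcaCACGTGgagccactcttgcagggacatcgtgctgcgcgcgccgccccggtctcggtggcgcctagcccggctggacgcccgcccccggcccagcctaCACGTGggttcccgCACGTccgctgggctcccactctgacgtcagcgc
*P4ha1*, chr10:59323046-59323295, plus strand: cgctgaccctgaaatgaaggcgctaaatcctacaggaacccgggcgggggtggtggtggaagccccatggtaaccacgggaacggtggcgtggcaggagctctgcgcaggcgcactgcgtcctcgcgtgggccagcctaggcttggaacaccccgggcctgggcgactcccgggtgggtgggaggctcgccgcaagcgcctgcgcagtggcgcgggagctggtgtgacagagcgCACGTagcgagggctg
*Hk2*, chr6:82774455-82774704, minus strand: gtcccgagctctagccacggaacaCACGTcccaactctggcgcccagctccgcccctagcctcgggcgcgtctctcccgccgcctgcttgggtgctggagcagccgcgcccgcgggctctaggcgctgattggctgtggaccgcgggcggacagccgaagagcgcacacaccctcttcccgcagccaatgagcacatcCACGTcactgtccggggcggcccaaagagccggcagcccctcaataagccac
*Pgk1*, chrX:106186850-106187099, plus strand: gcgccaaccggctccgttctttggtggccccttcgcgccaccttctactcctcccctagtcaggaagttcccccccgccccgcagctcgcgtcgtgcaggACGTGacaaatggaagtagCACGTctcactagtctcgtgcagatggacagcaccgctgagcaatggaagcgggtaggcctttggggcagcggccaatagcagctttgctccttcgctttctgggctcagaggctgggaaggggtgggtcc
*Ankrd37*, chr8:45999851-46000100, minus strand: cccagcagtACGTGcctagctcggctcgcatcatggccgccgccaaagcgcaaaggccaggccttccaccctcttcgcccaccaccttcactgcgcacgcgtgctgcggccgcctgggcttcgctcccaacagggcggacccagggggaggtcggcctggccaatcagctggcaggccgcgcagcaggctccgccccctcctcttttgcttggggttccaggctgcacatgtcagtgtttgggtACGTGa
The *Ldha* window held 5 matches before the start, which include the palindrome CACGTG at 2 places, and the *Hk2*, *Pgk1* and *Ankrd37* windows held 2 each and that of *P4ha1* 1. A match is a description of the letters and not a measured binding site.

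Among the 17 glycolytic enzyme genes, 5 rose, 10 fell and 2 did not pass, with a median of -0.23 on the log2 scale. When the enzymes were read in the order of the pathway, a division made after the values were seen, the genes that fell stood mainly in the early steps. From hexokinase to triose phosphate isomerase, 8 of 9 genes fell (88.9%) and 0 rose, beside 22.4% lower and 21.1% higher of all genes tested. From *Gapdh* to lactate dehydrogenase, 5 of 8 rose (62.5%) and 2 fell (25%). Several of these genes are paralogs of the same step. Under every alternative, only *Hk1*, *Pfkl*, *Aldoa* and *Aldoc* of the early genes passed. Of the later ones, *Pgam1*, *Eno2* and *Pkm* stayed higher and *Pgk1* lower. The summed FPKM of the 17 genes was 663 to 698 in control and 662 to 678 in LiCl samples, so the groups overlapped in the sum while its parts shifted. Annotated copies were not part of this sum. Those of *Gapdh* held 5171 to 7366 counts per sample beside 271 to 601 of its own, so the sum lacks much of this enzyme. The plot of levels along the pathway shows that the shifts were small beside the differences in level between the enzymes.

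**Figure D2:**
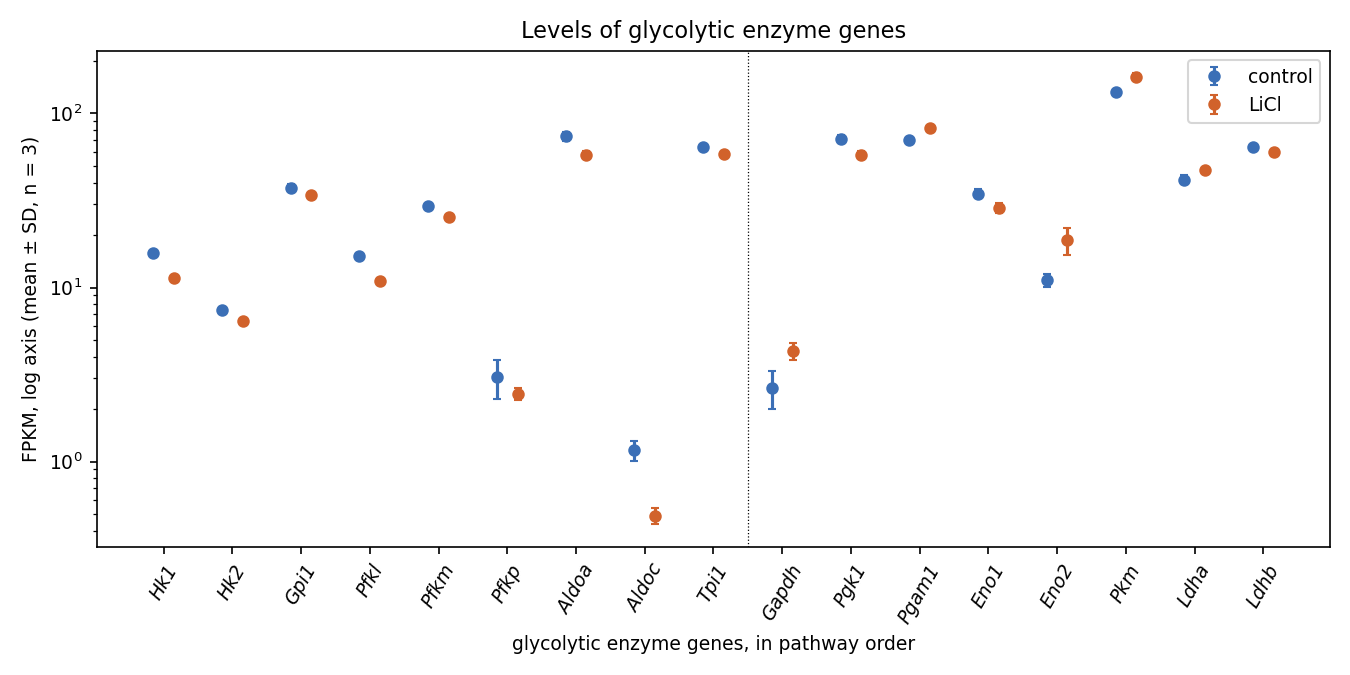
FPKM on a logarithmic axis for the 17 glycolytic enzyme genes in pathway order, with the mean and SD of 3 control (blue) and 3 LiCl (orange) samples; bars smaller than the point are hidden by it. Left of the dotted line, which separates triose phosphate isomerase from *Gapdh*, every LiCl mean lies below its control mean; right of it 5 of 8 lie above.

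Hexokinases trap glucose in the cell by phosphorylation. *Hk1*, the broadly expressed form, had 16.0, 15.6 and 15.9 FPKM in the control samples and 10.8, 11.3 and 11.7 in the LiCl samples, each given here and below in the order of the replicate numbers. It fell by 29.6% (log2 fold change -0.51 ± 0.05 SE, edgeR adjusted p = 4.2e-05), and the values within each group lay within a narrow range. *Hk2*, the inducible form and a HIF target, had 7.78, 7.23 and 7.29 FPKM in control and 6.57, 6.45 and 6.29 in LiCl samples. It fell by 14.4% (-0.23, adjusted p = 0.0093), so both forms were lower, and the share of *Hk1* in their summed FPKM went from 67.2–68.5% in control to 62.2–65.0% in LiCl samples. *Hk2* did not pass with LiCl replicate 2 alone (-0.21).

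The next enzymes were lower too. *Gpi1*, which converts glucose-6-phosphate into fructose-6-phosphate, went from 36.5–39.4 to 33.4–35.2 FPKM (-0.16 ± 0.05, edgeR adjusted p = 0.023). Its call was lost without control replicate 2 (-0.12), LiCl replicate 1 (-0.14) or LiCl replicate 2 (-0.15), and with LiCl replicate 2 alone (-0.17). Phosphofructokinase, which commits the sugar to glycolysis, has 3 genes. *Pfkl*, the liver form, had 14.7, 15.8 and 14.9 FPKM in control and 10.5, 11.4 and 10.8 in LiCl samples and fell by 28.8% (-0.49 ± 0.05, adjusted p = 8.9e-05). *Pfkm*, the muscle form and the most highly expressed here per length, had 29.5, 29.8 and 28.9 FPKM in control and 26.1, 25.1 and 25.1 in LiCl samples and fell by 14.5% (-0.23, adjusted p = 0.0031). It did not pass with LiCl replicate 2 alone (-0.23), and 10.2% of its exon bases are overlapped on the same strand by *Gm26513* or *Senp1*.

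*Pfkp*, the platelet form, had 2.57, 2.66 and 3.95 FPKM in control and 2.27, 2.64 and 2.45 in LiCl samples. The groups overlapped, control replicate 3 stood above the other 5 samples, and the gene did not pass (-0.34 ± 0.15, edgeR adjusted p = 0.099). Its fold change was -0.10 without control replicate 3 and -0.44 without control replicate 1, where it passed, and it also passed without a filter on low counts (-0.31), while 16.0% of its 100-base stretches also occur in the overlapping gene *Pitrm1*. The share of *Pfkl* in the summed phosphofructokinase FPKM went from 31.2–32.8% to 27.0–29.1%.

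Aldolase cleaves the phosphorylated sugar. *Aldoa*, the main form, had 72.9, 78.7 and 70.4 FPKM in control and 56.6, 56.9 and 60.9 in LiCl samples. It fell by 22.4% (-0.37 ± 0.05, edgeR adjusted p = 6.5e-04), and the groups did not overlap. *Aldoc*, known from brain and induced by hypoxia in many cells, had 1.21, 1.27 and 0.991 FPKM in control and 0.474, 0.548 and 0.447 in LiCl samples, from 100 to 129 counts per control and 41 to 50 per LiCl sample. It fell by 58.1% (-1.26 ± 0.18, adjusted p = 4.9e-04), the furthest fall of the 39 genes. Its share of the aldolase FPKM went from 1.39–1.64% to 0.729–0.954%, so the loss of *Aldoc* hardly touched the aldolase total. On the log2(FPKM + 1) scale, which compresses the change of low genes, its fold change was -0.53 and it was not called. Triose phosphate isomerase, *Tpi1*, went from 62.1–65.9 to 56.1–60.5 FPKM (-0.14, adjusted p = 0.038). This was the smallest change that passed, and it was lost without control replicate 1, 2 or 3 or LiCl replicate 2 or 3 (-0.16 to -0.11), and with LiCl replicate 2 alone (-0.19).

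The genes of the later steps divided. *Gapdh*, whose enzyme oxidizes glyceraldehyde-3-phosphate and whose mRNA often serves as a reference, had 3.38, 2.46 and 2.12 FPKM in control and 4.68, 3.75 and 4.47 in LiCl samples. It rose by 60.4% in the fit (log2 0.68 ± 0.16, edgeR adjusted p = 0.0085), and with LiCl replicate 2 alone it was 0.50 on the log2 scale and did not pass. The level under this identifier was far below that of the neighbouring enzymes, for example 71.4 FPKM for *Pgk1* and 63.9 for *Tpi1* in control samples. Of the 100-base stretches of its main transcript, 78.1% also occur in other annotated genes, 86 in all, most of them unnamed copies. Those copies held 5171 to 7366 counts per sample beside 271 to 601 under *Gapdh* itself. With the copies added, the log2 fold change was 0.42 ± 0.06 (adjusted p = 4.0e-04). The direction was the same, but the size under *Gapdh* alone is uncertain, and neither value is a clean measure of this gene.

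*Pgk1*, phosphoglycerate kinase, the first step that returns ATP, had 67.9, 74.8 and 71.5 FPKM in control and 55.3, 58.7 and 60.1 in LiCl samples and fell by 19.7% (-0.32 ± 0.05, edgeR adjusted p = 0.0011). *Pgam1*, the phosphoglycerate mutase that follows it, had 69.6, 71.8 and 70.0 FPKM in control and 81.7, 84.4 and 81.9 in LiCl samples and rose 1.16-fold (0.21 ± 0.04, adjusted p = 0.0032). These successive enzymes had nearly equal levels per length in control samples and moved apart. Both have copies in the genome, with 67.0% and 39.7% of 100-base stretches shared, but the copies took only 10 to 19 counts beside *Pgk1* and 49 to 71 beside *Pgam1*. With these added the log2 fold changes were -0.31 and 0.21, as the plot of copy counts shows.

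**Figure D3:**
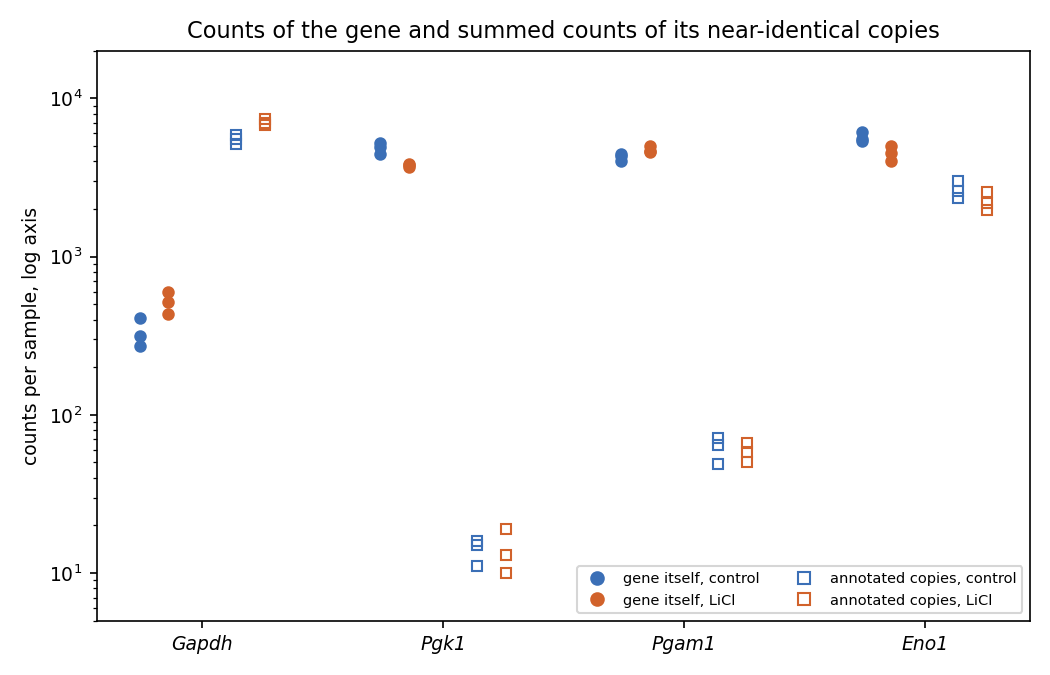
Counts per sample on a logarithmic axis for 4 enzyme genes (filled points) and the sum over annotated genes that share at least 1 stretch of 100 bases with them (open squares), in 3 control (blue) and 3 LiCl (orange) samples. The copies of *Gapdh* hold more counts than the gene itself in every sample, those of *Eno1* hold fewer than the gene, and those of *Pgk1* and *Pgam1* stay at or below 71 counts.

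Enolase makes phosphoenolpyruvate. *Eno1*, the ubiquitous form, had 35.0, 36.5 and 32.4 FPKM in control and 29.9, 29.9 and 26.4 in LiCl samples and fell by 17.9% (-0.29 ± 0.07, edgeR adjusted p = 0.0068). *Eno2*, the form known from neurons and neuroendocrine cells and also a HIF target, had 10.6, 12.1 and 10.4 FPKM in control and 22.0, 15.3 and 18.6 in LiCl samples. It rose 1.67-fold (0.74 ± 0.12, adjusted p = 9.4e-04), the largest rise of the 39 genes. These 2 enolase genes thus changed in opposite directions. The share of *Eno2* in their summed FPKM went from 23.2–24.9% in control to 33.9–42.4% in LiCl samples. Their sum was 45.7 ± 2.9 FPKM in control and 47.4 ± 3.9 in LiCl samples (SD, n = 3). A further enolase gene, *Eno3*, is given below and is not part of this sum. Copies of *Eno1* held 1975 to 3012 counts beside 3996 to 6132 of its own, and the log2 fold change with the copies added was -0.25. *Eno1* did not pass with LiCl replicate 2 alone (-0.22).

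The *Eno2* level was highest in LiCl replicates 1 and 3, the samples with high muscle markers. With LiCl replicate 2 alone against the controls the log2 fold change was 0.47, and the gene still passed. The 10 markers of neural crest, glia and neurons summed to 234 to 278 CPM in control and 167 to 231 in LiCl samples, with 0 of 10 higher and 2 lower, so the neuronal marker sum was lower where *Eno2* was higher.

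Pyruvate kinase, *Pkm*, had the highest level of the 39 genes per length, with 128, 135 and 134 FPKM in control and 154, 165 and 169 in LiCl samples. It rose 1.21-fold (0.28 ± 0.05, edgeR adjusted p = 0.0011). A value per gene does not tell its M1 and M2 isoforms apart, and 15.3% of its exon bases are overlapped on the same strand by the unnamed gene *Gm49759*. *Ldha*, the lactate dehydrogenase subunit that favours lactate production, had 41.2, 44.3 and 39.5 FPKM in control and 47.8, 45.5 and 48.4 in LiCl samples and rose by 12.1% (0.16, adjusted p = 0.032). The call was lost without control replicate 1 or 3 or LiCl replicate 1 or 3 (0.13 to 0.16), and with LiCl replicate 2 alone (0.12). *Ldhb*, the subunit typical of heart, had 61.9, 65.1 and 65.7 FPKM in control and 59.5, 62.8 and 57.2 in LiCl samples and did not pass (-0.12, adjusted p = 0.088). The share of *Ldha* in the summed FPKM of both went from 37.5–40.5% to 42.0–45.8%. Taken from counts without division by length, its mean share was 57.7% in control and 62.5% in LiCl samples. Which subunit held more therefore depends on the length used.

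Of the 4 transporters, 1 rose (25%), 2 fell (50%) and 1 did not pass, beside 21.1% higher and 22.4% lower of all genes tested. *Slc2a1* (GLUT1), the common glucose carrier of embryonic and growing cells, had 15.3, 17.3 and 15.9 FPKM in control and 20.2, 21.4 and 22.0 in LiCl samples and rose 1.30-fold (0.37 ± 0.06, edgeR adjusted p = 9.0e-04). *Slc2a3* (GLUT3), a high-affinity carrier, had 4.34, 4.43 and 4.67 FPKM in control and 3.51, 4.24 and 3.94 in LiCl samples (-0.22 ± 0.08, adjusted p = 0.041). The call for *Slc2a3* was lost without control replicate 1, 2 or 3 or LiCl replicate 1 or 3 (-0.24 to -0.14), and with LiCl replicate 2 alone the log2 fold change was -0.09 and did not pass. The share of *Slc2a1* in the summed FPKM of these 2 glucose carriers was 77.3–79.6% in control and 83.5–85.2% in LiCl samples. Their sum went from 20.6 ± 1.0 to 25.1 ± 1.2 FPKM (SD, n = 3). The sum was not tested.

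Neither lactate carrier was higher by the test. *Slc16a1* (MCT1), which carries lactate in both directions, had 19.0, 20.6 and 17.9 FPKM in control and 19.6, 20.8 and 19.97 in LiCl samples and did not pass (0.05 ± 0.06, edgeR adjusted p = 0.48). *Slc16a3* (MCT4), the exporter typical of strongly glycolytic cells and a HIF1 target, had 1.44, 1.73 and 1.68 FPKM in control and 1.24, 1.06 and 1.35 in LiCl samples. It fell by 25.6% (-0.43 ± 0.12, adjusted p = 0.021). The call was lost without control replicate 2 (-0.37), control replicate 3 (-0.39) or LiCl replicate 2 (-0.34).

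Of the 4 kinase genes that steer the pathway, 1 rose (25%) and 2 fell (50%), beside 21.1% and 22.4% of all genes tested. *Pdk1*, a HIF1 target whose product shuts pyruvate dehydrogenase down, had 3.53, 3.38 and 3.62 FPKM in control and 1.96, 1.96 and 2.13 in LiCl samples. It fell by 43.3% (-0.82 ± 0.07, edgeR adjusted p = 2.2e-05), and the groups lay far apart beside their spread. *Pdk3* had 11.5, 11.9 and 11.4 FPKM in control and 8.57, 10.8 and 9.23 in LiCl samples (-0.30 ± 0.09, adjusted p = 0.018). LiCl replicate 2 lay closest to the controls, and the call was lost without control replicate 2 (-0.28), control replicate 3 (-0.31), LiCl replicate 1 (-0.23) or LiCl replicate 3 (-0.27). With LiCl replicate 2 alone the log2 fold change was -0.11 and did not pass. The summed FPKM of *Pdk1* and *Pdk3* was 15.1 ± 0.18 in control and 11.6 ± 1.1 in LiCl samples (SD, n = 3).

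The other kinases, of the PFKFB family, make or remove fructose-2,6-bisphosphate, the activator of phosphofructokinase. *Pfkfb3*, the form with the strongest kinase activity, had 5.08, 5.44 and 5.69 FPKM in control and 5.24, 5.40 and 5.36 in LiCl samples and did not pass (-0.04 ± 0.06, edgeR adjusted p = 0.64). *Pfkfb4*, a HIF target, had 3.83, 3.73 and 3.50 FPKM in control and 4.68, 4.34 and 4.26 in LiCl samples and rose 1.19-fold (0.25 ± 0.07, adjusted p = 0.020). Its call was lost without control replicate 3 or LiCl replicate 1 (0.21 to 0.22), and with LiCl replicate 2 alone (0.23).

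Both HIF alpha genes among the 39 fell, by unequal amounts. *Hif1a* had 41.8, 41.4 and 39.5 FPKM in control and 37.1, 37.4 and 35.3 in LiCl samples and fell by 11.6% (-0.18 ± 0.05, edgeR adjusted p = 0.013). The call was lost without LiCl replicate 3 (-0.14) and with LiCl replicate 2 alone (-0.13). *Epas1*, which codes for HIF2A, had 11.4, 10.3 and 11.6 FPKM in control and 5.82, 5.68 and 6.49 in LiCl samples. It fell by 46.6% (-0.91 ± 0.07, adjusted p = 1.5e-05), and every LiCl value lay well under the lowest control value. The share of *Hif1a* in the summed FPKM of both went from 77.4–80.0% to 84.5–86.8%.

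*Epas1* is known for its high level in endothelium. The 10 endothelial markers summed to 590 to 754 CPM in control and 545 to 671 in LiCl samples, so the groups overlapped, and 2 of 10 were lower and 0 higher. The log2 fold change of *Epas1* with LiCl replicate 2 alone was -0.97. Of the prolyl hydroxylase genes, *Egln1* and *Egln3* did not pass. A further one, *Egln2*, belongs to another list given below and rose (0.21, edgeR adjusted p = 0.0061). *Egln1* (PHD2), the main oxygen sensor, had 16.9, 16.7 and 16.0 FPKM in control and 15.3, 15.2 and 15.6 in LiCl samples, with no overlap but an edgeR adjusted p of 0.069 (-0.12 ± 0.05). *Egln3* (PHD3), itself strongly induced by HIF, had 3.25, 3.70 and 3.76 FPKM in control and 3.13, 3.24 and 3.62 in LiCl samples, which overlapped (-0.12 ± 0.10, adjusted p = 0.39).

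Of the 10 other HIF target genes, 1 rose (10%), 3 fell (30%) and 6 did not pass, with a median of -0.03 on the log2 scale. Of all genes tested, 21.1% were higher and 22.4% lower. *Vegfa*, the main growth factor of blood vessels, had 34.8, 34.4 and 32.5 FPKM in control and 40.7, 31.1 and 37.8 in LiCl samples. LiCl replicate 2 lay below all controls and the other LiCl replicates above them, and the gene did not pass (0.09 ± 0.09, edgeR adjusted p = 0.43). Without LiCl replicate 2 the log2 fold change was 0.20 and passed, and with that replicate alone it was -0.13. With any 1 sample left out it ran from 0.0083 to 0.20, so the value depended on single samples.

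The BNIP3 genes code for receptors that send mitochondria to autophagy. *Bnip3* had 8.43, 7.98 and 8.58 FPKM in control and 8.003, 9.47 and 8.56 in LiCl samples and did not pass (0.04 ± 0.08, edgeR adjusted p = 0.71). Of its 100-base stretches, 33.5% also occur in other annotated genes, which held 0 to 2 counts per sample, and 22.3% of its exon bases lie opposite the unnamed gene *Gm45507*. *Bnip3l* (NIX), the form that clears mitochondria from maturing red cells, had 41.2, 43.3 and 40.1 FPKM in control and 30.3, 32.1 and 29.4 in LiCl samples and fell by 27.3% (-0.46 ± 0.05, adjusted p = 1.4e-04). The summed erythroid markers were 490 to 715 CPM in control and 640 to 989 in LiCl samples, with 3 of 9 tested markers higher and 0 lower, the other direction from *Bnip3l*. The share of *Bnip3* in the summed FPKM of both went from 15.5–17.6% to 20.9–22.8%.

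*Ndrg1*, a stress and differentiation gene that HIF and hypoxia induce in many cells, had 3.65, 2.94 and 2.90 FPKM in control and 2.03, 1.61 and 2.07 in LiCl samples. It fell by 40.4% (-0.75 ± 0.12, edgeR adjusted p = 0.0012), with no overlap between the groups. *Ankrd37*, a HIF1 target with a small ankyrin repeat protein, had 0.577, 0.479 and 0.504 FPKM in control and 0.188, 0.325 and 0.347 in LiCl samples, from 26, 23 and 24 counts against 9, 14 and 15. It fell by 45.6% (-0.88 ± 0.31, adjusted p = 0.045), but the call was lost when any 1 of the 6 samples was left out (-1.03 to -0.64), and with LiCl replicate 2 alone (-0.68). In addition, 26.4% of its exon bases are overlapped on the other strand by *Lrp2bp* and *Ufsp2*.

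The carbonic anhydrases, which buffer the acid made by glycolysis at the cell surface, did not pass. *Car9*, among the genes most tightly tied to HIF1, had 0.771, 1.03 and 0.884 FPKM in control and 1.33, 1.04 and 0.989 in LiCl samples (0.31 ± 0.19, edgeR adjusted p = 0.23), and *Car12* had 1.497, 1.74 and 1.89 against 1.45, 1.70 and 1.42 (-0.18 ± 0.11, adjusted p = 0.23). *Car9* held 52 to 95 counts per sample. *Adm*, which codes for the vessel-active peptide adrenomedullin, had 1.96, 1.504 and 2.10 FPKM in control and 2.39, 1.99 and 2.84 in LiCl samples (0.36 ± 0.19, adjusted p = 0.16). Its groups overlapped through LiCl replicate 2.

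Collagen prolyl 4-hydroxylases make collagen stable and are induced by HIF. *P4ha1* had 16.5, 15.7 and 15.2 FPKM in control and 20.7, 19.3 and 21.2 in LiCl samples and rose 1.27-fold (0.35 ± 0.06, edgeR adjusted p = 0.0010). *P4ha2* had 4.53, 4.62 and 4.79 FPKM in control and 4.59, 3.98 and 4.67 in LiCl samples and did not pass (-0.09 ± 0.07, adjusted p = 0.32). *P4ha1* was the only gene of the 10 that rose, and its share of the summed FPKM of both went from 76.1–78.5% to 81.8–82.9%. The plot of values by sample shows *P4ha1* beside genes that fell and genes that overlapped.

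**Figure D4:**
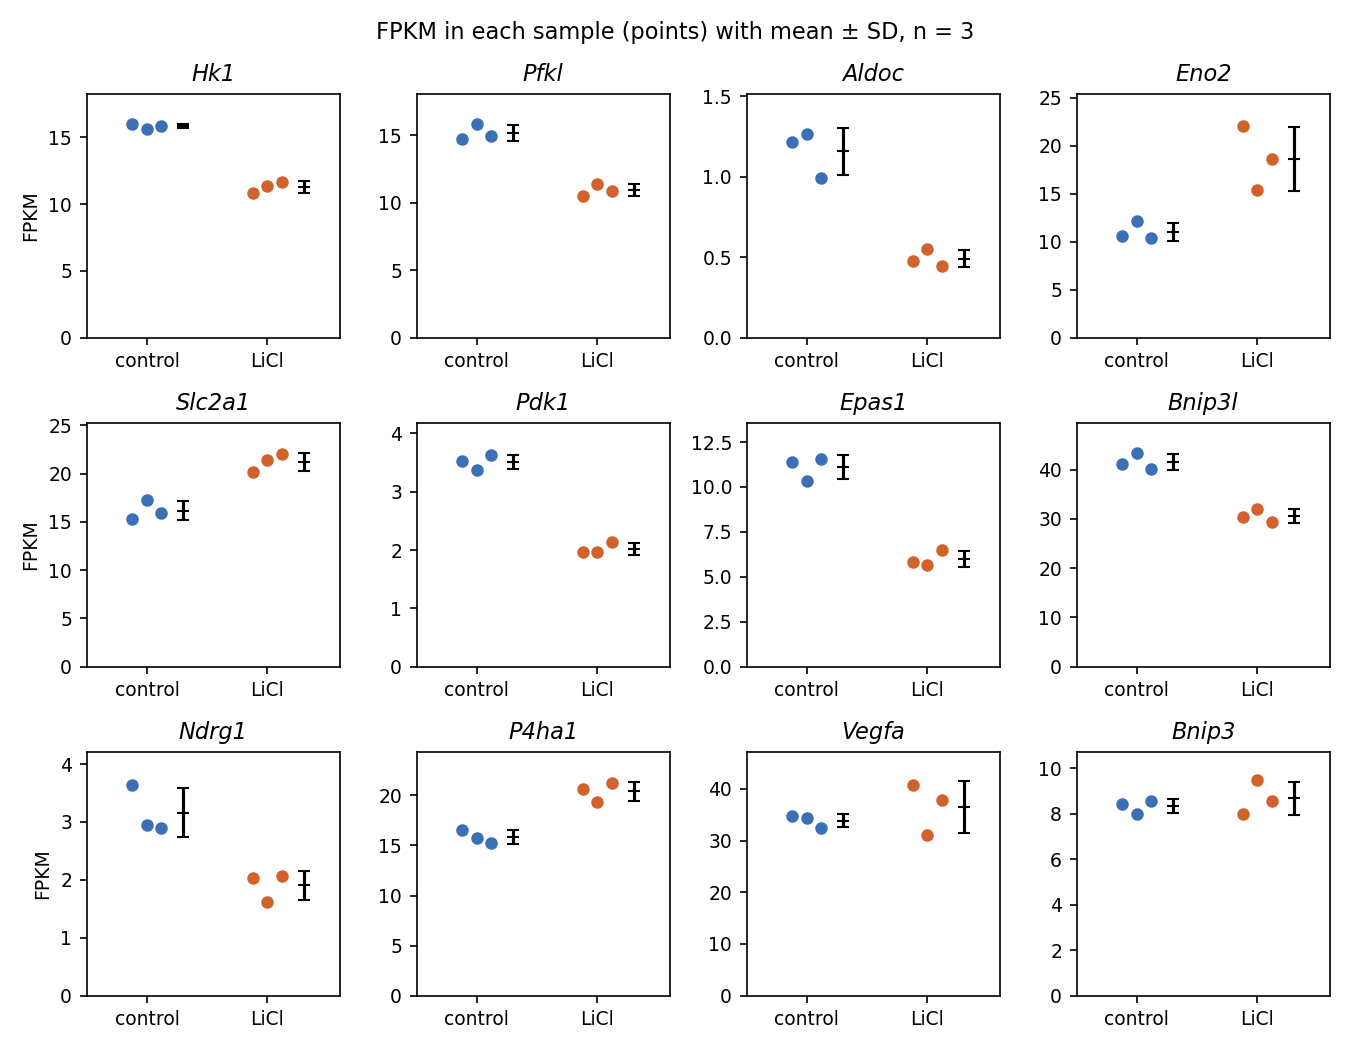
FPKM in each of 3 control (blue) and 3 LiCl (orange) samples for 12 genes, with the mean and SD (n = 3) to the right of the points; axes start at 0 and differ between genes. *Eno2*, *Slc2a1* and *P4ha1* lie higher in every LiCl sample, *Hk1*, *Pfkl*, *Aldoc*, *Pdk1*, *Epas1*, *Bnip3l* and *Ndrg1* lie lower in every LiCl sample, and *Vegfa* and *Bnip3* overlap.

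Because paralogs were read per length within each sample, their shares can be set side by side without regard to sequencing depth. In 13 of 14 families the share of the first-named paralog did not overlap between the groups, which gave p = 0.1 in an exact two-sided permutation test over samples, the smallest that 3 against 3 samples allow, and 0.108 after Benjamini-Hochberg adjustment over the 14 families. This test can therefore give no p under 0.05 here. For single genes, 28% of all genes tested lay wholly above and 26.2% wholly below the controls; the same was not computed for shares. The exception was the pair of *Egln1* and *Egln3* (exact permutation p = 1). In it, *Egln1* held 80.9–83.9% in control and 81.2–83.0% in LiCl samples. The prolyl hydroxylase gene *Egln2* was not part of this pair. It had 34.0 to 36.4 FPKM in control and 40.1 to 42.9 in LiCl samples, above *Egln1* with 16.0 to 16.9 and 15.2 to 15.6. The share of *Egln1* with *Egln2* included was not tested, so the overlap holds for the pair only. The share of *Slc16a1* went from 91.4–93.0% to 93.7–95.1%, that of *Pdk1* beside *Pdk3* from 22.0–24.1% to 15.3–18.8%, that of *Pfkfb3* from 57.0–61.9% to 52.8–55.7%, and that of *Car9* from 31.9–37.2% to 37.9–47.7%. The largest shift in percentage points was that of enolase, 15.1 in favour of *Eno2*.

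**Figure D5:**
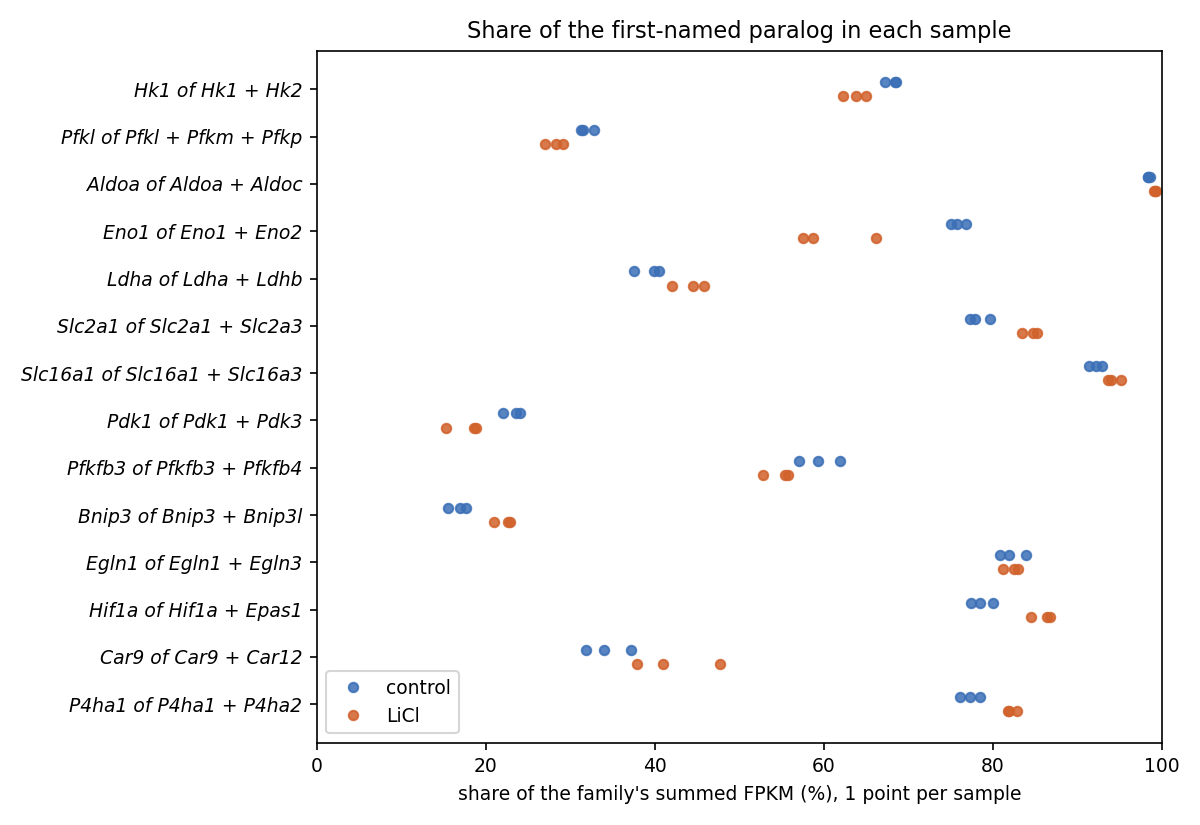
Share of the first-named paralog in the summed FPKM of its family, in percent, with 1 point per sample for control (blue) and LiCl (orange). The prolyl hydroxylase family shown holds *Egln1* and *Egln3* without *Egln2*. The groups are separate in 13 of 14 families and overlap for *Egln1*; *Eno1* shows the widest gap, with 75.1–76.8% in control and 57.6–66.1% in LiCl samples.

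Genes of the wider pathway also went both ways. Of 30 further glycolysis and pyruvate genes, 27 were tested, with a median of -0.15 on the log2 scale. Among the 27, 5 rose (18.5%) and 12 fell (44.4%), beside 21.1% and 22.4% of all genes tested. The 1 gene called was *Ldhd*, a mitochondrial D-lactate dehydrogenase, which had 0.255 to 0.359 FPKM in control and 0.0668 to 0.181 in LiCl samples (-1.30 ± 0.33, edgeR adjusted p = 0.011). Among genes picked after their values were seen, the remaining pyruvate dehydrogenase kinases fell as *Pdk1* did, with *Pdk2* going from 12.2–12.9 to 6.14–8.06 FPKM (-0.85 ± 0.09, adjusted p = 1.0e-04) and *Pdk4* from 1.05–1.30 to 0.770–0.804 FPKM (-0.56 ± 0.15, adjusted p = 0.013). The subunits of their substrate, the pyruvate dehydrogenase complex, went both ways, with *Pdha1* (-0.22), *Pdhb* (-0.15) and *Dlat* (-0.13) lower and *Pdhx* (0.23) higher, each past the test. The enolase *Eno3*, known from muscle, fell from 10.4–12.9 to 6.76–8.498 FPKM (-0.58), while the muscle mutase *Pgam2* rose (0.75) with 4.45, 4.68 and 7.33 FPKM in LiCl samples, highest in replicate 3.

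Pathways that branch from glycolysis or follow it were counted in the same test, and the genes named from them were picked after their values were seen. Beside their counts stand 22.4% lower and 21.1% higher of all genes tested. In the pentose phosphate pathway, which makes NADPH and ribose, 5 of 7 genes fell and 1 rose, with *G6pdx*, its entry enzyme, at -0.37 and *Pgd* at -0.36. In the citrate cycle 4 of 16 fell (25%) and 1 rose (6.25%), 11 did not pass and the median was -0.02. Of 8 gluconeogenesis genes 4 were tested, of which *Pcx* fell (-0.35) and 0 rose. In none of these lists was a gene called with a log2 fold change beyond 1.

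The HIF machinery held 3 genes that rose and 3 that fell out of 13 (23.1% each). These shares were near the 21.1% and 22.4% of all genes tested, and the median was 0.03. *Cited2*, a HIF target whose product competes with HIF for the coactivators CBP and p300, was the 1 called gene. It had 28.2, 28.3 and 25.4 FPKM in control and 13.6, 13.5 and 12.3 in LiCl samples (-1.08 ± 0.07, edgeR adjusted p = 3.5e-06). Among genes picked after their values were seen, the other HIF alpha gene, *Hif3a*, fell (-0.38), *Egln2* (PHD1) rose (0.21) and *Hif1an*, the asparagine hydroxylase of HIF, rose (0.17); the VHL gene itself was at -0.01 and did not pass.

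Of 40 further HIF target genes, 10 rose (25%), 11 fell (27.5%) and 19 did not pass. These shares were near the 21.1% higher and 22.4% lower of all genes tested, and the median was -0.02. Of the 40 genes, 4 were called, beside 2.74% called higher and 4.59% called lower of all genes. *Apln*, a peptide of growing vessels, had 1.63, 1.90 and 2.71 FPKM in control and 6.47, 6.55 and 9.30 in LiCl samples (1.82 ± 0.20, edgeR adjusted p = 1.1e-04). The called genes on the lower side were *Lox*, a collagen crosslinking enzyme, with 9.81 to 11.0 against 2.99 to 3.24 FPKM (-1.75 ± 0.07, adjusted p = 3.7e-07), and the chemokine *Cxcl12*, with 87.3 to 91.8 against 34.3 to 35.4 FPKM (-1.39 ± 0.04, adjusted p = 2.1e-07). Among genes picked after their values were seen, *Ddit4*, an inhibitor of mTORC1, rose (0.45) and *Plod1*, a collagen lysyl hydroxylase, fell (-0.48).

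Under every alternative that gave an adjusted p without a fold change minimum, 14 of the 27 genes passed again. They were *Pgam1*, *Eno2*, *Pkm*, *Slc2a1* and *P4ha1* on the higher side and *Hk1*, *Pfkl*, *Aldoa*, *Aldoc*, *Pgk1*, *Pdk1*, *Epas1*, *Bnip3l* and *Ndrg1* on the lower side. With LiCl replicate 2 alone against the controls, 5 genes were higher and 10 lower.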

How the data were processed

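Bulk RNA-Seq of 3 LiCl and 3 control samples was analysed. Poly-A RNA was made into stranded libraries and sequenced in pairs. The authors deposited raw counts per gene, made on GRCm39 with featureCounts, and FPKM per sample. The paper names HISAT2 as aligner, whereas the submitters' processing notes list STAR 2.7, besides fastp 0.23, featureCounts 2.0 and DESeq2 1.40, and which of them made the counts is not given. The annotation release and the strand setting of the counting are not given in the sources used here, so overlapping genes are uncertain. The deposited FPKM followed the counts divided by DESeq2's size factors, in 1 ratio per gene within 0.1%, for 100% of 13480 genes with over 50 counts in every sample. No replicates of a group were alike within counting error (chi-square over its degrees of freedom, 5.95 to 14.7).

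The test was edgeR's quasi-likelihood F test (edgeR 4.0.16, R 4.3.3), LiCl minus control with no covariate, after TMM scaling and the filterByExpr filter, with Benjamini-Hochberg adjustment over 18188 genes. A gene rose or fell at an adjusted p under 0.05 and was called when the log2 fold change also exceeded 1 in size, the thresholds of the study. Fold changes come from counts and levels from FPKM. The common dispersion was 0.0066. Symbols came from a GENCODE vM21 table (GRCm38), which covered 52073 of 56748 identifiers; since the build differs, no gene coordinates are given, and promoter windows carry their own build, GRCm38.p6. *Aldoa* has a second identifier with 52 to 120 counts, which was left out. Stretches of 100 bases of each main transcript were searched in all other annotated genes of that table's release.

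Alternatives were RLE factors, library size only, DESeq2 1.42.0, other count filters, the replicate block, each sample left out, LiCl replicate 2 alone, limma 3.58.1 on log2(FPKM + 1) or log2(FPKM + 0.1), and glmTreat; sums with copies were added after the data were seen. On simulated counts for this comparison, edgeR tested 18321 genes and recovered 100% of 4-fold and 96% of 2-fold changes with 13 false calls. The simulation changed 200 genes and gave all genes the same dispersion, and no change under 2-fold was simulated. All of the 39 genes except *Aldoc* changed by less than that, so the recovery does not cover them. The genes, lists and tests were chosen with earlier results of these data known. Named were all 39 genes, in full where the log2 fold change exceeded 0.5 in size at an adjusted p under 0.05 and for paralogs, and called genes of the other lists, of which 1 is not reported here; all others named are said to be picked after their values were seen. Macrophage markers summed to 99.2 to 161 CPM in control and 80.9 to 111 in LiCl samples, with 6 of 10 lower and 1 higher; the other marker lists stand beside the results.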

Additional observations from a re-analysis of the deposited data

How the results depend on the processing

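Counts of higher and lower genes stayed within 1.5 times the main 8 and 19 under RLE factors, library size only, DESeq2 (8 and 16), the count filters and limma. With LiCl replicate 2 alone they were 5 and 10; that sample is then assumed to vary like the controls. With 1 sample left out they were 6 to 9 and 13 to 17. Without *Gapdh*, *Pgk1*, *Pgam1*, *Eno1* and *Bnip3*, whose sequence is over 30% shared with copies, an alternative added after the data were seen, they were 6 and 17. Shares taken from counts without division by length shifted by 8.93 percentage points for *Slc2a1*, -8.65 for *Pdk1* and 3.73 for *Bnip3*, in the same direction as those from FPKM. *Aldoc* was called under each alternative except limma on log2(FPKM + 1), filtered or not, and glmTreat against a log2 fold change of 1, which gave 0 called genes. The median log2 fold change of the 39 genes (-0.16) was -0.19 with library size only, -0.13 without filter, -0.11 and -0.12 with limma on log2(FPKM + 1) with and without filter, -0.13 with log2(FPKM + 0.1), and -0.17 to -0.12 with 1 sample left out, lowest in size without control replicate 2. Library size only moved the median of all genes to -0.05. *Pfkfb3* turned to 0.0073 without control replicate 3 (-0.073 to 0.0073 with 1 sample left out), *Bnip3* to -0.024 without LiCl replicate 2 (-0.024 to 0.10) and *Vegfa* to -0.13 with LiCl replicate 2 alone, none of which passed; the cause was not tested. Genes that passed only under an alternative were *Ldhb* and *Egln1* with library size only, *Pfkp* without filter or without control replicate 1, and *Vegfa* without LiCl replicate 2. Over 18 settings, 578 single-gene values kept direction and side of the threshold, 75 lost and 5 gained significance. With the replicate number as a block, 7 genes were higher and 15 lower, 0 and 1 called. The labels do not say whether the numbers pair the samples. Same-numbered deviations correlated at -0.01, -0.18 and 0.13, and differently numbered ones at -0.19 to 0.18. With 3 samples per group these values cannot decide whether any samples were paired. *Ankrd37*, *Aldoc*, *Car9* and *Adm* had the fewest counts.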
